A study of Mus musculus with 2 samples.

Results

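The cells described here are macrophages of the mouse adrenal gland that carry RNA of Gpnmb or Lpl, 2 genes associated with lipid-loaded macrophages. A barcode with at least 500 genes and at most 25% mitochondrial UMIs (unique molecular identifiers, each marking 1 captured RNA molecule) counted as a macrophage with at least 10 UMIs of C1qa, C1qb and C1qc together. These had to make up at least 0.2% of its UMIs, with no UMI of Cd3e and with the steroidogenic genes Hsd3b1, Cyp21a1, Star and Cyp11a1 under 0.5% of its UMIs. Macrophages with at least 6 UMIs of Gpnmb and Lpl together were the members. There were 192 members among 3511 macrophages and 19135 cells kept, out of 19692 barcodes: 94 at 9 weeks and 98 at 6 weeks. The other 2424 macrophages at 9 weeks and 895 at 6 weeks are called other macrophages. Gpnmb and Lpl chose the members, so their levels, and every difference between members and other macrophages of the same library, are descriptions of the chosen cells.

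Both groups came from female C57BL/6J mice of the genotype SF1-Cre+;Znrf3Fx/Fx, at 9 weeks (1 library from 3 adrenals) and at 6 weeks (1 library from 2 adrenals). SF1 drives Cre in the steroid-producing cells of the adrenal cortex, where it removes Znrf3, a ubiquitin ligase that restrains Wnt signalling. Both ages carry the deletion, no other genotype is compared here, and whether macrophages keep Znrf3 was not tested. The submitters chose the 2 ages to span the passage from cortical overgrowth at 6 weeks to shrinkage of the gland at 9 weeks, and asked which immune changes accompany it after senescence has begun. With 1 library per age there are no replicates, so no test across libraries was made. Every interval covers counting error within a library only, and age, animals and library cannot be told apart.

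Lipid-associated macrophages appear where phagocytes take in much lipid, such as in obese fat tissue, atherosclerotic plaques and degenerating nerve tissue. The surface receptor TREM2 senses lipids and apolipoproteins and promotes the programme. LPL is the lipase that frees fatty acids from triglycerides, GPNMB is a lysosome and surface glycoprotein that rises under lysosomal load, and FABP5, SPP1, CD9 and LGALS3 are recurrent partners of both.

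Members were sequenced more deeply than their neighbours, with a median of 11831 UMIs at 9 weeks and 10222.5 UMIs at 6 weeks, against 7309 and 5795 UMIs in other macrophages. A fixed count of 6 UMIs is easier to reach in a deep cell. Values recomputed with other macrophages weighted to the members' depth are given for some genes and lists. Members carried macrophage markers that the rule did not use. Csf1r, Adgre1, Mertk, Fcgr1 and Cd68 were all detected at both ages, every member had a UMI of at least 1 of them, and they summed to 1741 CPM (UMIs of a gene scaled to 1000000 UMIs of the pooled cells) at 9 weeks and 1934 CPM at 6 weeks, against 1831 and 2094 CPM in other macrophages and 56.6 and 24.1 CPM in T cells. At 9 weeks 5 members drew 9.93% to 26.2% of their UMIs from 7 neutrophil genes and 2 further members were rich in haemoglobin RNA, while no member at 6 weeks met that limit of 0.2% (0 of 98, which allows up to 3.06%). These 5 cells held 99.5% of the neutrophil UMIs of the 9-week members, and results that move without the 7 cells are given both ways. Scrublet called 8.51% of members doublets at 9 weeks and 3.06% at 6 weeks, against 7.01% and 2.57% of other macrophages and 5.82% and 5.88% of all cells kept. The libraries shared 29 barcodes, none of them a member's. Markers of chromaffin cells summed to 0 CPM at 9 weeks and 4.67 CPM at 6 weeks in members, and the 6 adrenocortical markers summed to 106 and 92.4 CPM, against 125 and 103 CPM in other macrophages. Monocyte markers summed to 423 CPM in members against 198 CPM in other macrophages at 6 weeks. At 9 weeks they summed to 799 against 470 CPM, and to 116 against 305 CPM without the cells rich in neutrophil or haemoglobin RNA.

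Most members reached the threshold mainly through Lpl. At 9 weeks 92 of 94 members had a UMI of Lpl and 40 had a UMI of Gpnmb, while at 6 weeks 96 of 98 had Lpl and 31 had Gpnmb. Lpl (mm10 chromosome 8, 68880491 to 68907448, plus strand) had a median of 9 UMIs per member at each age and a highest count of 64. Gpnmb (chromosome 6, 49036546 to 49070929, plus strand) had a median of 0 UMIs per member, and the highest counts were 103 UMIs at 9 weeks and 57 UMIs at 6 weeks. A single cell held 24.5% of the members' Gpnmb UMIs at 9 weeks and another held 14.9% at 6 weeks. Members with at least 2 UMIs of Gpnmb numbered 31 at 9 weeks and 25 at 6 weeks, and 27 and 22 of these also had at least 2 UMIs of Lpl. The remaining 63 members at 9 weeks and 73 at 6 weeks all had at least 2 UMIs of Lpl with 0 or 1 of Gpnmb. Just inside the threshold lay 21 cells with 6 UMIs at 9 weeks and 19 at 6 weeks, and just outside it 25 cells with 5 UMIs at 9 weeks and 16 at 6 weeks.

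**Figure D1:**
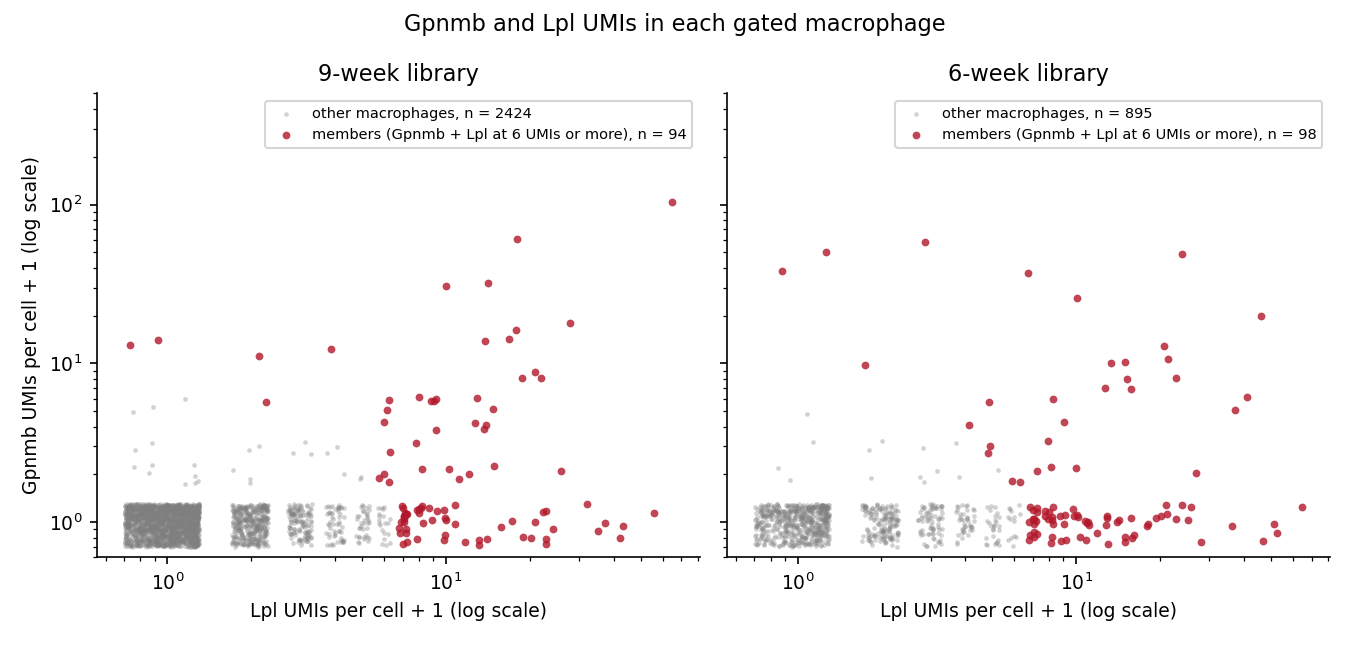
UMIs of Gpnmb (vertical axis) and Lpl (horizontal axis), each plus 1 on log scales with points spread slightly for visibility, in every gated macrophage of the 9-week library (left) and the 6-week library (right). Red points are the 94 and 98 members and grey points the 2424 and 895 other macrophages, and most red points lie along the bottom, where Gpnmb is 0 and Lpl alone reaches 6 UMIs.

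Trem2 was not part of the rule, and it was higher in members than in other macrophages at both ages, by more at 9 weeks. Trem2 (chromosome 17, 48346401 to 48354147, plus strand) stood at 511 CPM in members and 229 CPM in other macrophages at 9 weeks, a fold of 2.2 (range 1.98 to 2.45, made from the bounds of both 95% Poisson intervals and so wider than 95%). At 6 weeks it stood at 747 CPM in members and 538 CPM in other macrophages, a fold of 1.39 (1.25 to 1.54). With other macrophages weighted to the members' depth the log2 ratios were 1.43 at 9 weeks and 1.08 at 6 weeks. The deepest bins of that weighting held 17 and 2 members but only 12 and 2 other macrophages at 6 weeks. Weighted 6-week values therefore rest partly on few cells. Many other macrophages carried Trem2 as well. With every cell thinned to 3000 UMIs, 64.9% of members and 44.6% of other macrophages held a Trem2 UMI at 9 weeks, and 79.4% and 68.2% at 6 weeks. T cells, which should lack it, held one in 0.478% of cells at 9 weeks and 0% at 6 weeks at the same thinned depth (median depths before thinning 4667 and 3983 UMIs). Thinning left out 0 members, 167 other macrophages and 124 T cells at 9 weeks, and 1, 114 and 90 at 6 weeks, and unthinned shares were 83.0% of members and 64.5% of other macrophages at 9 weeks and 89.8% and 80.1% at 6 weeks. All 3 genes, Trem2, Gpnmb and Lpl, were found together in 37 of 94 members at 9 weeks and 28 of 98 at 6 weeks, against 13 and 9 other macrophages.

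Members were a smaller fraction of macrophages at 9 weeks. They made up 3.73% of macrophages at 9 weeks (3.03% to 4.55%, exact Clopper-Pearson 95%) and 9.87% at 6 weeks (8.08% to 11.9%), a ratio of 0.378 (range 0.254 to 0.563). Macrophages were 23.9% of the cells kept at 9 weeks and 11.5% at 6 weeks. As a share of all cells kept, members were therefore closer between the ages, at 0.893% at 9 weeks and 1.14% at 6 weeks, and the range of that ratio, 0.521 to 1.18, included 1. Among macrophages with at least 5000 UMIs, thinned to that number, members were 1.85% at 9 weeks (37 of 1996) and 9.15% at 6 weeks (60 of 656). The share of all cells depends on how many cortical and other cells were captured, so it does not measure cells per gland.

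Genes differed in how their levels ran across macrophages ordered by their UMIs of Gpnmb and Lpl. Mmp12, which encodes macrophage elastase, stood at 25.9 CPM at 9 weeks and 54.5 CPM at 6 weeks in macrophages with no UMI of Gpnmb or Lpl, at 169 and 218 CPM with 3 to 5 UMIs, at 608 and 427 CPM with 6 to 9 UMIs, and at 2392 and 2016 CPM with 15 or more. Its level was higher in each successive bin at both ages. Trem2 showed another shape. With 6 to 9 UMIs it was at 292 CPM at 9 weeks (95% interval 249 to 341). That was somewhat above the 229 CPM (221 to 237) of macrophages with no UMI of Gpnmb or Lpl. At 6 weeks it was at 565 CPM (499 to 638) against 535 CPM (510 to 560). With 15 or more UMIs it was at 658 CPM at 9 weeks and 945 CPM at 6 weeks. Spp1, the secreted phosphoprotein osteopontin, was low below the threshold, with 4.15 CPM at 9 weeks and 14.9 CPM at 6 weeks at 3 to 5 UMIs, and stood at 61.0 and 149 CPM at 6 to 9 UMIs. With 10 to 14 UMIs it was at 74.9 CPM at 9 weeks and 13.3 CPM at 6 weeks, and with 15 or more at 655 and 246 CPM, so its 6-week level was not ordered by bin. Deeper cells fall more often in higher bins: median depth was 6875 UMIs in the lowest and 12522.5 UMIs in the highest bin at 9 weeks, and 5388.5 and 11571 UMIs at 6 weeks.

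**Figure D2:**
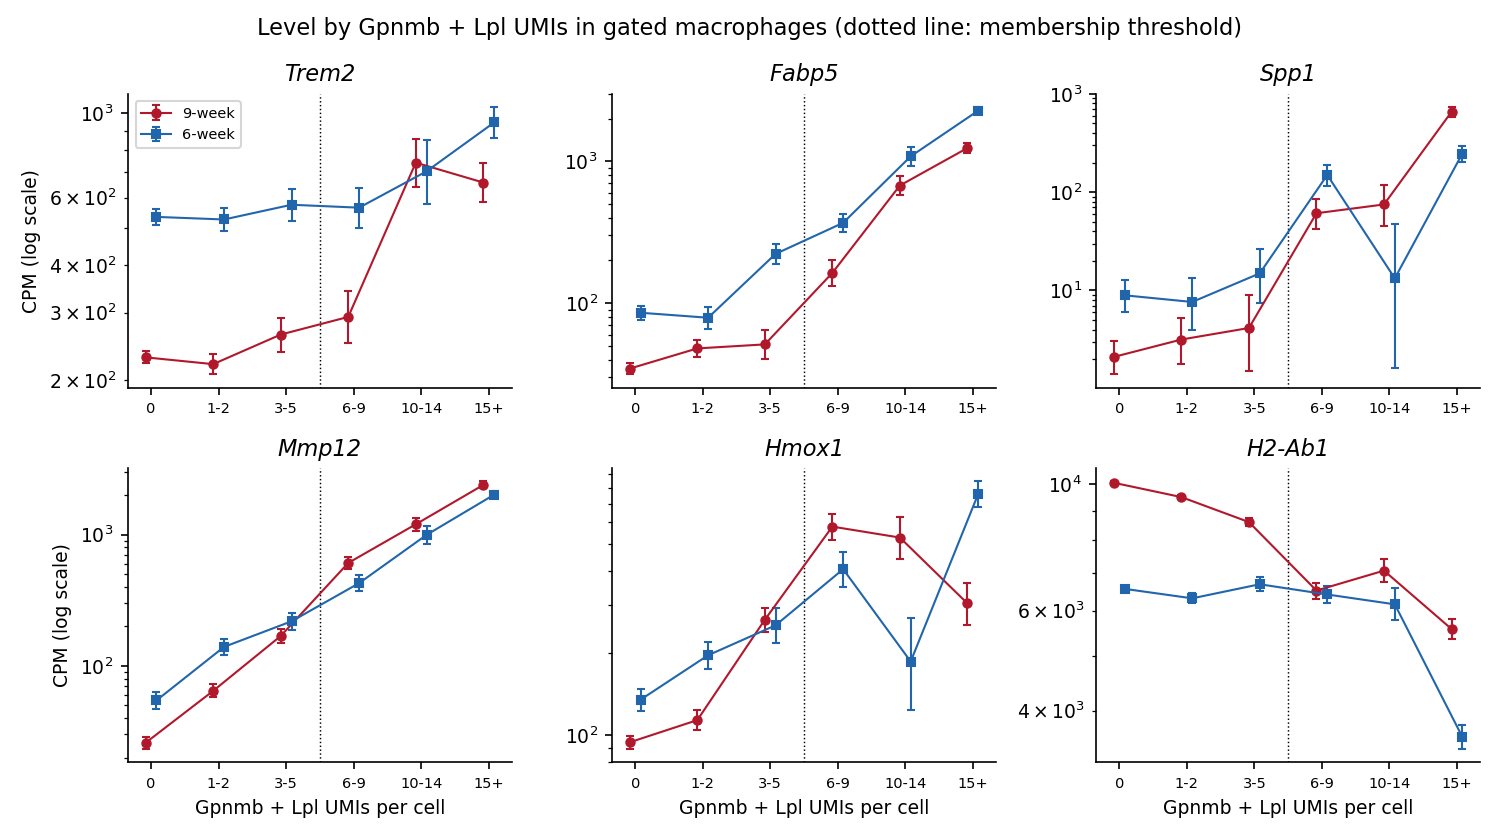
Level in CPM (log scale) of 6 genes in gated macrophages grouped by their UMIs of Gpnmb and Lpl together, with red circles for 9 weeks, blue squares for 6 weeks and bars for exact Poisson 95% intervals of counting error. Right of the dotted line are members; Mmp12 and Fabp5 are at 2392 and 1239 CPM in the highest 9-week bin, while H2-Ab1 is lowest there at both ages (5569 CPM at 9 weeks, 3597 CPM at 6 weeks).

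Against other macrophages, 184 of the 5628 genes compared were higher in members by at least 1.5-fold at both ages (3.27%) and 136 were lower (2.42%). Within single libraries, 6.5% of genes were higher and 6.01% lower at 9 weeks, and 5.12% higher and 4.8% lower at 6 weeks. Genes compared had a mean of at least 20 CPM over the 4 pools, and ratios carry a pseudocount of 5 CPM, which understates the change of weak genes. A gene weak in 1 set of cells could enter through the other set alone, and could then hardly be called the other way. Slc7a11, Gla and Atp6v0d2, described below, entered in this way through the members. What the filter adds to the counts of each list was not tested. Without the neutrophil-rich and haemoglobin-rich cells, over 5592 genes, 6.8% were higher and 7.17% lower at 9 weeks, 5.1% higher and 4.81% lower at 6 weeks, and 3.27% higher and 2.52% lower at both. The median log2 ratio over all these genes was -0.02 at 9 weeks and 0.01 at 6 weeks.

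The lipid-associated genes were broadly higher in members. Of 21 genes compared, 13 were at least 1.5-fold higher at both ages and none lower at either, with median log2 ratios of 1.33 at 9 weeks (15 higher) and 0.83 at 6 weeks (14 higher). Fabp5, a carrier of fatty acids within cells, stood at 641 CPM in members and 39.1 CPM in other macrophages at 9 weeks, and at 1284 CPM in members and 102 CPM in other macrophages at 6 weeks. Spp1 stood at 270.4 CPM in members against 2.52 CPM in other macrophages at 9 weeks and at 172 CPM against 9.36 CPM at 6 weeks, yet at 3000 UMIs per cell it was found in only 12.8% and 15.5% of members (21.3% and 20.4% unthinned), against 0.709% and 1.15% of other macrophages and 0.239% and 0.407% of T cells. Lgals3, which encodes the sugar-binding protein galectin-3 and marks phagocytes that handle damaged lysosomes, was instead found in 95.7% of members at 9 weeks and 95.9% at 6 weeks at 3000 UMIs per cell, against 62.9% and 60.8% of other macrophages and 28.6% and 16.3% of T cells. Unthinned, 98.9% and 94.9% of members held it. Lgals3 reached 5060 CPM in members against 703 CPM in other macrophages at 9 weeks, and 3899 against 883 CPM at 6 weeks. The tetraspanin Cd9 stood at 444 CPM in members against 68.7 CPM in other macrophages at 9 weeks and at 472 against 116 CPM at 6 weeks. Igf1, a growth factor, was 2.88-fold higher in members at 9 weeks (2.52 to 3.29) and 1.78-fold at 6 weeks (1.52 to 2.10). Some members of the list did not follow. The lipoprotein gene Apoe stood at 32218 CPM in members against 39330 CPM in other macrophages at 9 weeks and at 37290 against 50964 CPM at 6 weeks, folds of 0.819 and 0.732. Tyrobp, the signalling partner of TREM2, had folds of 0.975 and 0.971, and Fabp4, another fatty acid carrier, folds of 0.856 and 1.31.

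Genes of lipid uptake and sterol handling were higher in part. Of 19 genes for uptake, storage and efflux, 10 were 1.5-fold higher at 9 weeks and 5 at 6 weeks, none was lower, and Abcg1, Cd36, Fabp5 and Lipa were higher at both ages. With other macrophages weighted to the members' depth, 11 of the 19 were higher at 9 weeks and 10 at 6 weeks. Cd36, a receptor for oxidized lipoproteins and fatty acids, stood at 539 CPM in members against 121 CPM in other macrophages at 9 weeks and at 487 against 207 CPM at 6 weeks. The lysosomal lipase Lipa, which frees cholesterol from its esters, was at 593 CPM in members against 211 CPM in other macrophages at 9 weeks and at 642 against 259 CPM at 6 weeks. Plin2, the coat of lipid droplets, was 2.48-fold higher at 9 weeks (2.23 to 2.75) and 1.45-fold at 6 weeks (1.22 to 1.71). Nr1h3, which encodes the oxysterol sensor LXR alpha, stood at 72.4 CPM in members against 11.3 CPM in other macrophages at 9 weeks and at 61.6 against 20.3 CPM at 6 weeks. Of the 10 genes of the LXR and PPARG list, 6 were higher at 9 weeks and 4 at 6 weeks. None of the 7 genes of cholesterol synthesis compared passed 1.5-fold either way at either age, with medians of -0.11 and 0.05.

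Some lysosomal genes were higher, among them 5 subunits of the proton pump. Of 23 genes of the lysosome membrane and its pump, 7 were higher at both ages and none lower at either (11 at 9 weeks and 7 at 6 weeks, medians 0.55 and 0.36). The 7 were the pump genes Atp6v0c, Atp6v0d2, Atp6v1a, Atp6v1b2 and Atp6v1c1 and the membrane glycoprotein genes Cd63 and Cd68. Atp6v0d2, the pump subunit shared by osteoclasts and lipid-loaded macrophages, stood at 111 CPM in members against 1.39 CPM in other macrophages at 9 weeks and at 175 against 4.14 CPM at 6 weeks. The catalytic subunit gene Atp6v1a was 2.66-fold higher at 9 weeks and 2.22-fold at 6 weeks. Among 28 genes of lysosomal enzymes, cathepsins and cathepsin inhibitors, 5 were higher at both ages (Acp5, Ctsd, Gla, Lipa and the inhibitor Cstb). The inhibitor Cst3 was the 1 gene lower at both ages, and the medians were 0.19 and 0.01. Ctsd, an aspartic protease, stood at 2713 CPM in members against 791 CPM in other macrophages at 9 weeks and at 3109 against 1542 CPM at 6 weeks. Gla, the alpha-galactosidase, was at 64.4 against 8.22 CPM at 9 weeks and at 34.5 against 7.92 CPM at 6 weeks. Acp5, best known from osteoclasts, was 1.56-fold and 1.53-fold higher, while Ctsk, the osteoclast collagenase, was at 3.22 CPM at 9 weeks and 1.87 CPM at 6 weeks in members. TFEB and its relatives control many lysosomal genes through an E-box, TCACGTG. This motif, searched on both strands in 300-base promoter windows (250 bases before to 50 after each start, RefSeq, GRCm38.p6), was in 3.77% of 32851 promoters, in 7 of 28 promoters of the enzyme list and in 6 of 22 of the membrane and pump list. Of the genes higher at both ages, Ctsd, Gla and Atp6v1a held it. Their windows are shown 5′ to 3′ with the motif in capitals, to set the letters beside the levels, and a match is a description and not a site. The Ctsd window lies at chr7:142388049-142388077 (plus strand), Gla at chrX:134601210-134601250 (minus strand) and Atp6v1a at chr16:44139368-44139408 (minus strand), and none overlaps the antioxidant motif described next.
Ctsd: gaatgactggatacaggTCACGTGgggga
Gla: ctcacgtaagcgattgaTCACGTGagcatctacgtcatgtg
Atp6v1a: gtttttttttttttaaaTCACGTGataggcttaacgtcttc

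Genes of iron handling and oxidative defence were higher in members at both ages. Of 13 compared, 11 were at least 1.5-fold higher at both ages and none lower, with medians of 1.23 at 9 weeks and 1.34 at 6 weeks. Prdx1, a peroxidase that removes hydrogen peroxide, stood at 5151 CPM in members against 1201 CPM in other macrophages at 9 weeks and at 4975 against 1294 CPM at 6 weeks. Hmox1, which breaks down haem, was at 473 against 111 CPM at 9 weeks and at 528 against 168 CPM at 6 weeks, where a single cell held 26.2% of the members' UMIs. Slc7a11, the cystine importer that feeds glutathione synthesis, stood at 66.0 against 2.31 CPM at 9 weeks and at 47.6 against 3.42 CPM at 6 weeks. Fth1, the ferritin heavy chain that stores iron, was 2.31-fold higher at 9 weeks (25046 against 10824 CPM) and 2.27-fold at 6 weeks (28676 against 12635 CPM). The iron exporter gene Slc40a1 was 2.08-fold and 1.96-fold higher. Srxn1 (4.99-fold and 3.98-fold), Txnrd1 (4.64-fold and 3.24-fold) and Gclm (3.38-fold and 2.85-fold), which repair peroxiredoxins, reduce thioredoxin and make glutathione, were higher as well. Nfe2l2, which encodes the regulator NRF2 of many of these genes, had folds of 0.973 and 0.953. NRF2 binds the antioxidant response element, whose core was searched as TGACNNNGC on both strands. The core was in 12.4% of all 32851 promoters and in 5 of 19 promoters of 12 list genes, namely of Gclm, Nfe2l2, Prdx1, Srxn1 and Txnrd1. Windows of 3 of them, each higher at both ages, are printed with the core in capitals (minus strand, Gclm chr3:122245406-122245448, Prdx1 chr4:116685449-116685491, Txnrd1 chr10:82859097-82859139), and none overlaps the E-box.
Gclm: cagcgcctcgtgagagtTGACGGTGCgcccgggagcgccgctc
Prdx1: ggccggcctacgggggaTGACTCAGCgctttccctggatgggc
Txnrd1: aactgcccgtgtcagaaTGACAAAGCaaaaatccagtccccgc

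Other named genes higher in members encode secreted, surface and cytoskeletal proteins. Mmp12 stood at 1349 CPM in members against 45.9 CPM in other macrophages at 9 weeks and at 1187 against 100.2 CPM at 6 weeks. Il1rn, the antagonist of the interleukin-1 receptor, stood at 87.7 against 5.04 CPM at 9 weeks, with 39.4% of the members' UMIs in 1 cell, and at 72.8 against 7.20 CPM at 6 weeks. Clec4d, a lectin receptor of myeloid cells, was 12-fold higher at 9 weeks and 6.04-fold at 6 weeks. Capg and Vim, of the cytoskeleton, were 9.22-fold and 5.27-fold higher at 9 weeks and 5.94-fold and 3.27-fold at 6 weeks. Atf3, a stress-induced transcription factor that is also raised by tissue dissociation, was 4.04-fold higher at 9 weeks and 4.05-fold at 6 weeks. Of 11 genes of the dissociation list, 2 were higher at 9 weeks and 4 at 6 weeks, and their part in other results was not tested. Emp1, Vat1, Syngr1, Adam8, Anpep and Procr lay between 4.45-fold and 7.03-fold at 9 weeks and between 3.51-fold and 4.51-fold at 6 weeks. Of 12 anti-inflammatory and repair genes, 6 were higher at both ages, among them Il1rn, Igf1, Mmp12 and the growth factor Pdgfa, and 2 were lower at 9 weeks (3 without the neutrophil-rich and haemoglobin-rich cells) and none at 6 weeks. Chil3 was counted with them, but at 9 weeks its level of 612 CPM in members became 5.6 CPM without the neutrophil-rich and haemoglobin-rich cells. Of 11 inflammatory genes, 5 were higher and 2 lower at 9 weeks (median 0.19), and 4 were higher and none lower at 6 weeks (median 0.09). The chemokine genes Ccl3, Ccl4 and Cxcl2 were those higher at both ages, for example Ccl3 with 70.0 against 20.1 CPM at 9 weeks and 138 against 32.0 CPM at 6 weeks. Of 12 genes of glycolysis and hypoxia, Aldoa, Pgam1, Pgk1 and Pkm were higher at both ages, by 1.89-fold to 2.35-fold, while none of 20 genes of oxidative phosphorylation passed 1.5-fold.

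**Figure D3:**
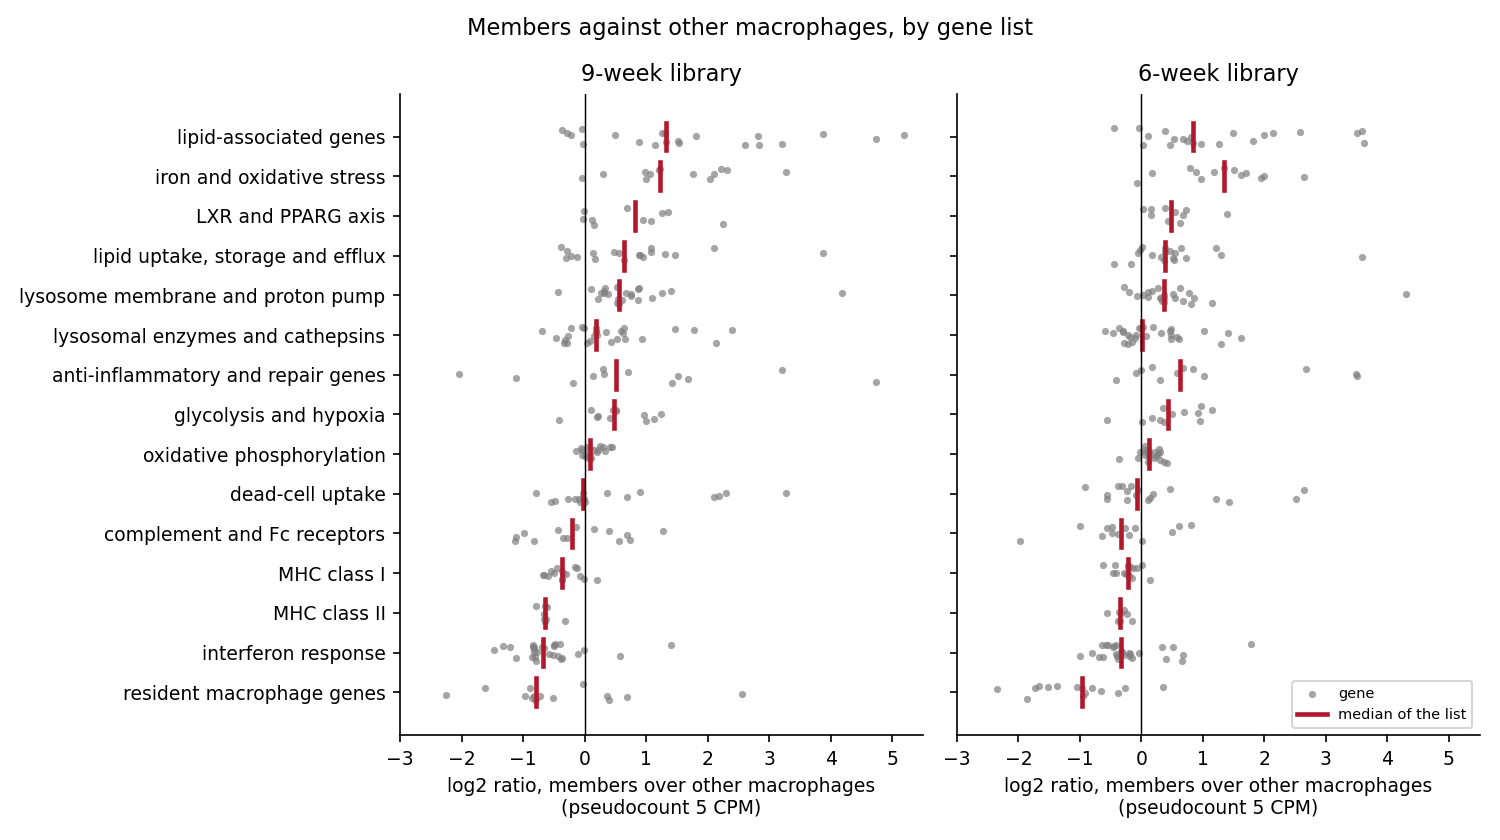
Log2 ratio of members over other macrophages (horizontal axis, pseudocount 5 CPM) for each gene compared in 15 gene lists, in the 9-week library (left) and the 6-week library (right). Grey points are genes and red bars the median of each list, from 1.33 and 0.83 for lipid-associated genes at the top to -0.78 and -0.96 for resident macrophage genes at the bottom.

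Many genes of tissue-resident macrophages were lower in members, fewer of them once depth was weighted. Of 15 compared, 9 were 1.5-fold lower at 9 weeks and 12 at 6 weeks (medians -0.78 and -0.96), and 9 were lower at both ages. Mrc1, the mannose receptor, stood at 249 CPM in members against 445 CPM in other macrophages at 9 weeks and at 276 against 580.2 CPM at 6 weeks. Unthinned, 36.2% of members and 41.3% of other macrophages had at least 4 UMIs of Folr2 and Mrc1 together at 9 weeks. At 6 weeks the shares were 33.7% and 38.8%. No UMI of either was found in 28.7% and 14.6% at 9 weeks and in 24.5% and 15.5% at 6 weeks. Cbr2, a carbonyl reductase used as a marker of resident macrophages, was at 20.9 against 41.8 CPM at 9 weeks and at 52.3 against 185 CPM at 6 weeks. F13a1, the coagulation factor XIII subunit, had no UMI in 9-week members, which allows up to 2.41 CPM, against 18.8 CPM in other macrophages, and at 6 weeks it stood at 29.9 against 122 CPM. The list was not uniform: 2 genes were higher at 9 weeks, and of these the chemokine Ccl8 was 5.87-fold higher with 86.0% of the members' UMIs in 1 cell, and 0.385-fold at 6 weeks. With other macrophages weighted to the members' depth, 5 of the 15 genes were lower and 4 higher at 9 weeks. At 6 weeks 6 were lower and none higher with that weighting. The named lower genes included Tmem119, Gpr34, P2ry12 and P2ry13, known as homeostatic genes of microglia in the brain. Tmem119 stood at 18.5 CPM in members against 65.5 CPM in other macrophages at 9 weeks and at 28.0 against 81.5 CPM at 6 weeks. Gpr34, a lysophospholipid receptor, was at 38.6 against 147 CPM at 9 weeks and at 88.7 against 238 CPM at 6 weeks. Across the graded bins Tmem119 was at 70.0 CPM at 9 weeks and 96.9 CPM at 6 weeks in macrophages without Gpnmb or Lpl, and at 6.95 and 8.73 CPM in those with 15 or more UMIs. Rnase4, Pmepa1, Abca9, Lifr, Ifi27l2a, Tagap, Ssh2 and the complement gene C4b were the other named lower genes, with folds of 0.254 to 0.495.

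Many class II and interferon genes were lower in members at 9 weeks, and fewer at 6 weeks. Of 8 class II genes compared, 7 were 1.5-fold lower at 9 weeks and none at 6 weeks (medians -0.64 and -0.34). H2-Ab1 stood at 6293 CPM in members against 9821 CPM in other macrophages at 9 weeks and at 5168 against 6499 CPM at 6 weeks. These ratios lay close to the 1.5-fold limit, and the 9-week count was 3 of 8 without the neutrophil-rich and haemoglobin-rich cells and 2 of 8 with other macrophages weighted to the members' depth. Of 16 class I genes, 3 were lower at 9 weeks and 1 at 6 weeks (medians -0.37 and -0.22). Of 28 interferon response genes, 15 were lower and 1 higher at 9 weeks (median -0.68), and 5 were lower and 3 higher at 6 weeks (median -0.34). At 6 weeks these values differed between members with more and with less Gpnmb, as given below. Irf7, a master regulator of interferon responses, was at 71.6 CPM in members against 161 CPM in other macrophages at 9 weeks and at 49.5 against 90.1 CPM at 6 weeks. Isg15, a ubiquitin-like protein, stood at 67.6 against 195 CPM at 9 weeks and at 95.2 against 132 CPM at 6 weeks. Cxcl9, which attracts T cells, went the other way at both ages, with 203 against 73.9 CPM at 9 weeks and 449 against 282 CPM at 6 weeks, but 71.4% of the 9-week members' UMIs lay in 1 cell. Whether the members' response to interferon differed between the ages was not tested.

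Members with more Gpnmb differed from those with little or none. This split, made after the data were seen, set the 31 members with at least 2 Gpnmb UMIs at 9 weeks and the 25 at 6 weeks (Gpnmb-high) against the 63 and 73 members with 0 or 1 (Gpnmb-low, of which 9 and 6 had 1). In Gpnmb-high members 6.01% of 5628 genes were 1.5-fold higher and 15.1% lower at 9 weeks, 7.69% were higher and 22.8% lower at 6 weeks, and 1.97% were higher and 6.49% lower at both. With so few cells, single cells weigh on each value. Of the 21 lipid-associated genes, 15 were higher and 2 lower at each age, with medians of 0.85 at 9 weeks and 1.11 at 6 weeks, against -0.09 and -0.15 over all genes. Trem2 stood at 915 CPM in Gpnmb-high and 287 CPM in Gpnmb-low members at 9 weeks, and at 1354 and 500.3 CPM at 6 weeks. The levels in Gpnmb-low members were nearer to those of other macrophages, 229 CPM at 9 weeks and 538 CPM at 6 weeks, than to those of Gpnmb-high members. Weighting other macrophages to the members' depth raised the Trem2 ratios of the members as a whole, and it was not applied to this split. Fabp5 was at 1497 CPM in Gpnmb-high and 167 CPM in Gpnmb-low members at 9 weeks, and at 4106 and 138 CPM at 6 weeks. Spp1 followed, with 621 and 76.2 CPM at 9 weeks and 407 and 76.2 CPM at 6 weeks, as did Atp6v0d2, with 255 and 31.2 CPM at 9 weeks and 527 and 31.5 CPM at 6 weeks. Cd9 stood at 705 CPM in Gpnmb-high and 300.0 CPM in Gpnmb-low members at 9 weeks, and at 889 and 303 CPM at 6 weeks, so it was above other macrophages in both subsets. Gpnmb-low members still had 14 of the 21 genes higher than other macrophages at 9 weeks, where 6.34% of all genes were higher and 5.51% lower, and 8 at 6 weeks, where 5.93% were higher and 4.1% lower, with 1 of the 21 lower at each age.

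Oxidative defence genes were high in both subsets. Against other macrophages, Gpnmb-low members had 11 of 13 iron and oxidative stress genes higher at 9 weeks and 10 at 6 weeks (medians 1.44 and 1.24), beside the shares of 6.34% and 5.93% just given. At both ages together 2.43% of all genes were higher and 1.39% lower in that comparison. Between the subsets the list had medians of 0.01 at 9 weeks and 0.75 at 6 weeks. Prdx1 stood at 5163 CPM in Gpnmb-high and 5145 CPM in Gpnmb-low members at 9 weeks, and at 7299 and 4031 CPM at 6 weeks. Hmox1 and Slc40a1, for haem breakdown and iron export, were lower in Gpnmb-high members at both ages. Hmox1 was at 228 CPM in Gpnmb-high and 609 CPM in Gpnmb-low members at 9 weeks, and at 362 and 595 CPM at 6 weeks. The single cell named above for its large part of the 6-week Hmox1 UMIs was Gpnmb-low, so the 6-week Hmox1 difference rests largely on it. Slc40a1 was at 215 and 627 CPM at 9 weeks, and at 349 and 684 CPM at 6 weeks. Of 28 interferon genes, 13 were lower in Gpnmb-high members at 9 weeks (1 higher, median -0.48), where 15.1% of all genes were lower, and 26 at 6 weeks (none higher, median -1.26), where 22.8% were. Isg15 was at 31.6 CPM in Gpnmb-high and 87.5 CPM in Gpnmb-low members at 9 weeks, and at 35.6 and 119 CPM at 6 weeks. Of 8 class II genes, none was 1.5-fold lower at 9 weeks (median -0.26) and 7 were at 6 weeks (median -1.25), with H2-Ab1 at 2405 CPM in Gpnmb-high and 6289.6 CPM in Gpnmb-low members at 6 weeks. These counts too stand beside 15.1% and 22.8% of all genes lower. Against other macrophages, Gpnmb-low members had 13 of 28 interferon genes lower and 2 higher at 9 weeks (median -0.55). At 6 weeks 1 was lower and 6 were higher (median -0.06). Of the 8 class II genes, 2 were lower at 9 weeks (median -0.55) and none at 6 weeks (median -0.08). In that comparison 5.51% and 4.1% of all genes were lower, and 6.34% and 5.93% higher. The cell cycle genes Ccnd1 and Ccnd2 were lower in Gpnmb-high members at both ages, for Ccnd1 at 40.7 and 136 CPM at 9 weeks and 35.6 and 239 CPM at 6 weeks. The 5 mitotic genes compared did not follow at both ages. In Gpnmb-high members 2 were higher and none lower at 9 weeks (median 0.26), where 6.01% of all genes were higher. At 6 weeks all 5 were lower (median -3.19), where 22.8% of all genes were.

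**Figure D4:**
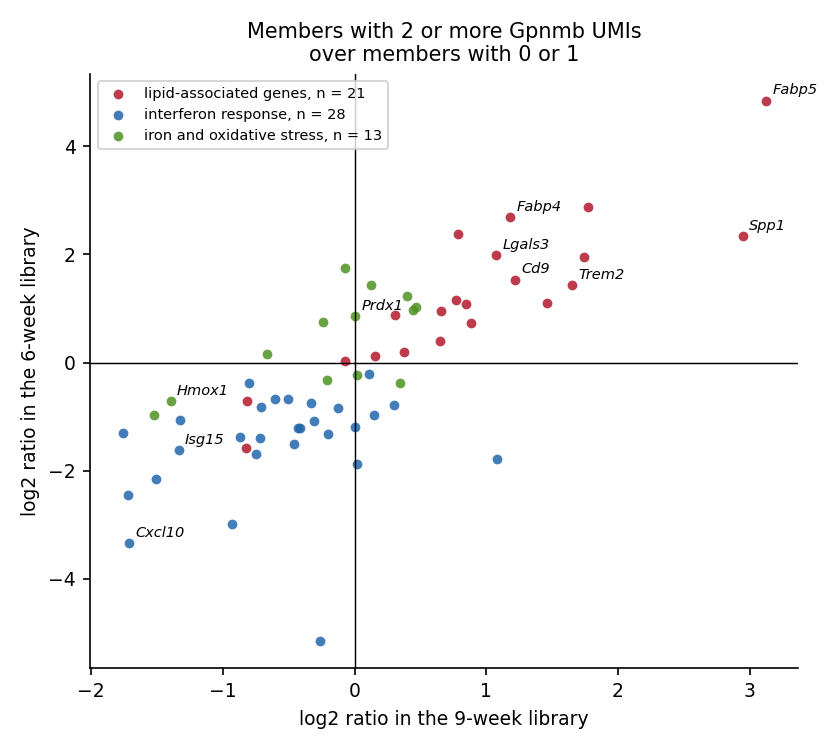
Log2 ratio of members with 2 or more Gpnmb UMIs over members with 0 or 1 for each gene of 3 lists, at 9 weeks (horizontal axis) and 6 weeks (vertical axis). Lipid-associated genes (red) lie mostly upper right, with Fabp5 at 3.12 and 4.85, interferon genes (blue) mostly lower left, and iron and oxidative stress genes (green) around 0 at 9 weeks, with Hmox1 at -1.40 and -0.71. The 6-week Hmox1 value rests largely on a single cell.

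Between the ages, members at 9 weeks had 266 genes 1.5-fold higher (4.73%) and 189 lower (3.36%) than members at 6 weeks, of 5628 compared. In other macrophages 103 genes were higher (1.83%) and 107 lower (1.9%) at 9 weeks, over far more UMIs. Without the cells rich in neutrophil or haemoglobin RNA, 249 were higher (4.45%) and 214 lower (3.83%) in members. The lipid-associated genes differed less between the ages in members than in other macrophages, where they were the lower at 9 weeks. In members 2 of 21 were higher and 2 lower (median -0.09), and in other macrophages 0 were higher and 9 lower (median -0.46). No test of this difference was possible. Members of both ages had to reach the same count of Gpnmb and Lpl UMIs, and other macrophages had to stay below it. What this rule adds to the contrast was not tested. Trem2 was at 511 CPM at 9 weeks and 747 CPM at 6 weeks in members, a fold of 0.686 (0.592 to 0.795), and at 229 and 538 CPM in other macrophages, a fold of 0.432. Gpnmb and Lpl, which chose the members, stood at 339 and 954 CPM at 9 weeks and at 358 and 1225 CPM at 6 weeks. Fabp5 was lower in 9-week members, at 0.501-fold (0.443 to 0.567), while Spp1 was 1.56-fold (1.21 to 2.00) and Plin2 1.84-fold (1.53 to 2.21) of the 6-week level. None of the 13 iron and oxidative stress genes passed 1.5-fold between the ages in members.

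**Figure D5:**
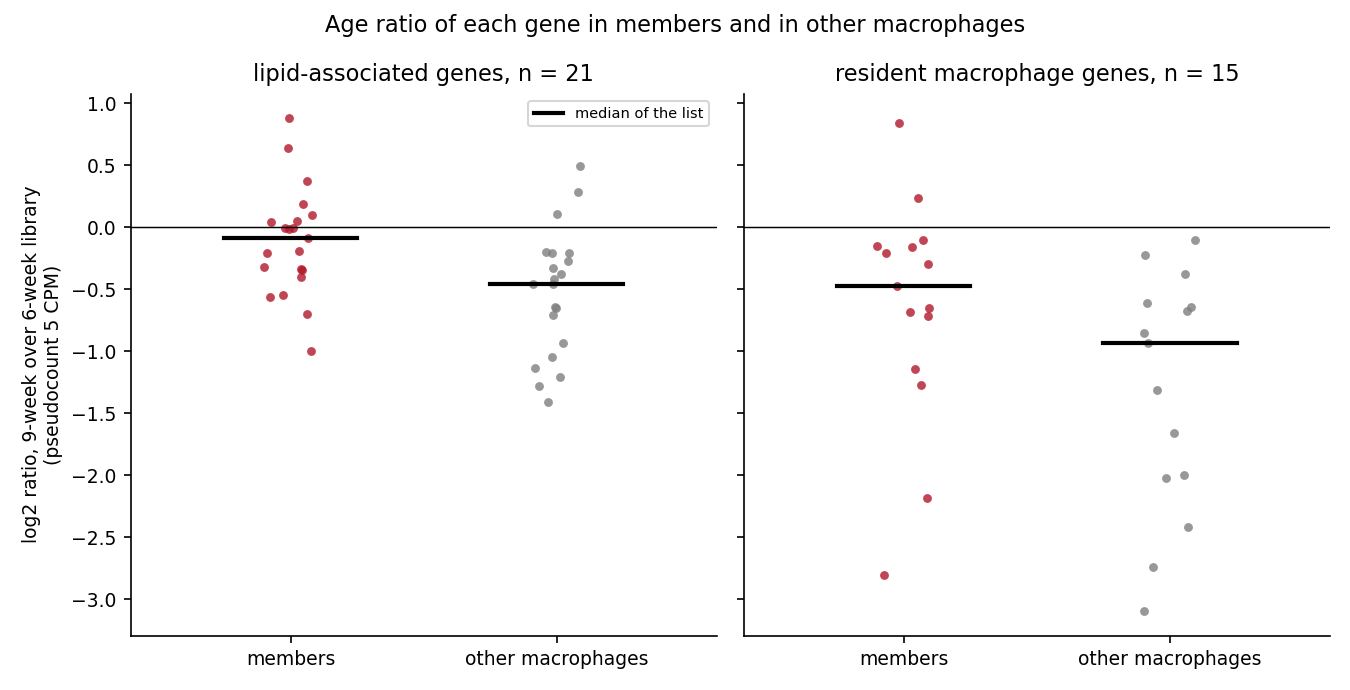
Log2 ratio of 9 weeks over 6 weeks for each gene of 2 lists, in members (red, left of each panel) and in other macrophages (grey, right), with black bars for the medians. Lipid-associated genes have medians of -0.09 in members and -0.46 in other macrophages, and resident macrophage genes medians of -0.48 in members and -0.93 in other macrophages.

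Among the members, 7 of 15 resident macrophage genes were lower at 9 weeks than at 6 weeks. In members 1 of the 15 was higher (median -0.48), and without the neutrophil-rich and haemoglobin-rich cells 5 were lower. In other macrophages 12 were lower and none higher (median -0.93). Fcrls, an Fc receptor-like gene of resident macrophages, had the lowest named ratio, with 8.05 CPM at 9 weeks and 97.1 CPM at 6 weeks in members and 19.0 and 223 CPM in other macrophages. Ccr2, the receptor that draws monocytes out of the blood, stood at 32.2 CPM at 9 weeks and 124 CPM at 6 weeks in members, and at 89.9 and 141 CPM in other macrophages. Ch25h, which makes the oxysterol 25-hydroxycholesterol, was at 14.5 CPM at 9 weeks and 60.7 CPM at 6 weeks in members, and the lectin Mgl2 at 22.5 and 84.0 CPM. Of the 12 named lower genes, 6 (Fcrls, Ccr2, Ch25h, Mgl2, Mir99ahg and Adam15) also passed 1.5-fold in other macrophages, and the others (Fbxw4, Fam102b, Rtn1, Napsa, Rhot1 and Ttc28) did not. S100a4, a calcium-binding protein of monocytes and migrating cells, was at 8.85 CPM at 9 weeks and 162 CPM at 6 weeks in members, and at 27.1 and 63.7 CPM in other macrophages. Between the ages, the 11 monocyte genes had 4 higher and 4 lower in members (median -0.15). Without the neutrophil-rich and haemoglobin-rich cells 1 was higher and 7 lower (median -1.32). Against other macrophages, 6 of the 11 were higher and 1 lower in members at 6 weeks (median 1.08). At 9 weeks 4 were higher and 4 lower (median 0.23), and 1 was higher and 7 lower (median -1.12) without those cells. With all cells and other macrophages weighted to the members' depth, the medians were -0.08 at 9 weeks and 0.41 at 6 weeks.

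The genes higher at 9 weeks were led by neutrophil RNA. S100a9 and S100a8, which encode the neutrophil protein calprotectin, stood at 7688 and 6469 CPM in 9-week members, and at 0 (which allows up to 2.80 CPM) and 2.80 CPM in 6-week members. Without the 7 cells their 9-week levels were 58.8 and 30.8 CPM. At 3000 UMIs per cell S100a8 was found in 12.8% of members, 16.3% of other macrophages and 19.98% of T cells at 9 weeks, so its share in members was below that of T cells, which should lack it, and above the 8.44% of cortical cells. Of the 11 genes named as higher, 7 were still 1.5-fold higher without these cells: S100a9, S100a8, Adamdec1, Syne1, Ctr9, Gstp1 and Snx24. Adamdec1, a metalloprotease of gut and tissue macrophages, stood at 39.4 CPM at 9 weeks and 11.2 CPM at 6 weeks in members, and at 65.5 and 18.4 CPM in other macrophages. Gstp1, a glutathione transferase, was at 49.9 and 18.7 CPM in members and at 47.9 and 20.5 CPM in other macrophages. Snx24, of the endosomal sorting nexins, and Ctr9, of the PAF1 transcription complex, were 2.32-fold and 2.35-fold higher in members, against 0.922-fold and 1.13-fold in other macrophages. Anxa1, Ckap4, Adpgk and Hmgn2 fell short of 1.5-fold without the 7 cells, with log2 ratios of 0.39, 0.51, 0.26 and 0.04.

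Cells with mitotic RNA were few among the members. With cells thinned to 2000 UMIs and counted as cycling from 2 UMIs of 11 mitotic genes, 4.26% of members cycled at 9 weeks (1.17% to 10.5%) and 6.12% at 6 weeks (2.28% to 12.9%). In other macrophages the shares were 5.93% (5.01% to 6.97%) at 9 weeks and 3.43% (2.31% to 4.89%) at 6 weeks, and these intervals overlap those of the members at each age. No cortical cell was counted as cycling after thinning (0 of 396 at 9 weeks and 0 of 2230 at 6 weeks). Without the neutrophil-rich and haemoglobin-rich cells, 2.30% of 9-week members cycled (2 of 87, 0.280% to 8.06%) and 5.70% of other macrophages. The 5 mitotic genes compared had a median log2 ratio between the ages of 0.80 in members (3 higher), and -0.00058 (1 higher, 2 lower) without those cells. Unthinned, the cycling shares over all cells were 12.8% and 12.2% in members and 11.7% and 6.15% in other macrophages. Thinning left out 81 other macrophages at 9 weeks and 49 at 6 weeks, and no member.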

How the data were processed

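Adrenal cells were dissociated in the cold, freed of red blood cells, sorted as dye-positive and DAPI-negative, and captured with Chromium 3' v3.1 chemistry, per the labels' protocols. The deposited values are UMI counts per gene and barcode as the authors left them, without normalization. Cell Ranger 6.0.1, Seurat and the mm10 build appear in the submitters' processing notes, and no annotation release is named in the sources used here. Rows of 1 symbol were summed (32285 rows, 32245 symbols).

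The 9-week library held 10812 barcodes and 99728879 UMIs, and the 6-week library 8880 and 97001752. Members and gene lists were chosen with earlier results of these data known. Members were pooled per library (1242805 UMIs at 9 weeks and 1070911 at 6 weeks, against 19458306 and 5558237 in other macrophages). Levels are counts scaled to 1000000 UMIs (CPM) with exact Poisson 95% intervals, shares have exact Clopper-Pearson 95% intervals, and a count of 0 allows 3 counts. A gene counted as higher or lower past 1.5-fold with a pseudocount of 5 CPM. No test across samples was possible. The 10 genes of the rule were left out. Doublets, called with Scrublet in scanpy 1.11.5 at 0.8% per 1000 cells, stayed in the main values.

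Named genes were the 20 highest and 12 lowest over other macrophages by the smaller log2 ratio, and the 12 highest and 12 lowest between ages, among genes past 2-fold and found in 20% of the higher cells, without mitochondrial, ribosomal, haemoglobin, immunoglobulin and receptor-segment genes; genes of 24 lists could also be named. Of the 12 higher between ages, 1 is not reported here. The genes named lower with Gpnmb were picked after their values were seen. Alternatives were 1000 genes per cell, doublets removed, thinning, membership by rate, other thresholds, pseudocounts and filters, edgeR 4.0.16 TMM factors, means over cells and depth weighting. Removing cells rich in neutrophil or haemoglobin RNA and splitting members by Gpnmb were added after seeing the data. Counting was tested on simulated data. Coordinates come from GENCODE M21 on mm10. Tables and figures were made with pandas 2.3.3, matplotlib 3.10.9, scipy 1.17.1 and numpy 2.4.6 in Python 3.11.15.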

Additional observations from a re-analysis of the deposited data

Results flagged for a closer look

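With all cells counted, genes of monocytes, neutrophils and chemokines went opposite ways between members and other macrophages at the 2 ages, by at least 2-fold each. None of these differences between the ages was tested, since each age is 1 library. For S100a9, a neutrophil gene, the log2 ratio of members over other macrophages was 1.88 at 9 weeks (7688 CPM in members against 2088 CPM in other macrophages) and -1.97 at 6 weeks (0 CPM, which allows up to 2.80 CPM, against 14.6 CPM). Without the cells rich in neutrophil or haemoglobin RNA the 9-week log2 ratio was -0.39. At 6 weeks 2 of the 895 other macrophages held 80% of that set's UMIs of 7 neutrophil genes, S100a9 among them. Those genes together fell from 24.3 to 4.87 CPM without these cells, so the 6-week ratio rests largely on them.

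S100a4, a calcium-binding protein of monocytes, had log2 ratios of -1.21 at 9 weeks (8.85 CPM in members against 27.1 CPM in other macrophages) and 1.29 at 6 weeks (162 against 63.7 CPM). Plac8, a gene of monocytes and lymphocytes, had log2 ratios of -1.14 at 9 weeks (47.5 against 111 CPM) and 2.52 at 6 weeks (205 against 31.7 CPM). Plac8 also differed in direction between the ages, with a log2 ratio of 9 weeks over 6 weeks of -2.0 in members and 1.66 in other macrophages. Without the neutrophil-rich and haemoglobin-rich cells the 9-week log2 ratios were -1.12 for S100a4 and -1.31 for Plac8. The chemokine Ccl5, best known from T cells and NK cells, had log2 ratios of -1.04 at 9 weeks (33.8 against 74.7 CPM) and 1.18 at 6 weeks (97.1 against 40.1 CPM). Without the cells rich in neutrophil or haemoglobin RNA its 9-week log2 ratio was -0.83, under 2-fold. The chemokine Ccl8 went the other way, with 2.55 at 9 weeks (97.4 against 12.4 CPM, 86.0% of the members' UMIs in 1 cell) and -1.38 at 6 weeks (52.3 against 144 CPM).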

How the results depend on the processing

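The share of macrophages that were members was lower at 9 weeks than at 6 weeks under every setting run. At 9 weeks the 3.73% became 1.85% with cells thinned to 5000 UMIs, 6.43% with a threshold of 4 UMIs and 2.10% with 10 UMIs. At 6 weeks the 9.87% became 13.3% with membership by rate (0.05% of UMIs and at least 3), 14.5% with 4 UMIs and 5.54% with 10 UMIs. The 184 genes higher at both ages, of 5628 compared, became 285 of 5485 with members that had 2 or more Gpnmb UMIs. The 136 lower genes became 278 of 5544 with a threshold of 10 UMIs and 481 of 5485 with Gpnmb-high members. They became 80 of 5667 with members of 0 or 1 Gpnmb UMIs (gene filter applied anew). With a filter of 50 CPM they became 82 of 2831. Between the ages, the 266 higher genes became 530 of 5544 with 10 UMIs and 878 of 5485 with Gpnmb-high members. They became 494 of 7731 with a filter of 10 CPM and 83 of 2831 with 50 CPM. The 189 lower genes became 342 of 5544 with 10 UMIs and 518 of 5485 with Gpnmb-high members. With members of 0 or 1 Gpnmb UMIs they became 301 of 5667. They became 372 of 7731 with 10 CPM and 65 of 2831 with 50 CPM. Filters on CPM change how many genes are compared, and smaller sets of cells hold fewer UMIs per gene; other causes were not tested. Weighting other macrophages to the members' depth gave 178 higher and 112 lower genes at both ages, of which 147 and 57 were among the 184 and 136. Membership by rate (gene filter applied anew) gave 164 higher and 112 lower, of which 144 and 66 were among them. Between the ages membership by rate gave 268 higher and 224 lower genes, of which 127 and 110 were among the 266 and 189. TMM factors shifted the median of all genes by less than 0.1 in each comparison.

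Over 72 list medians, 701 of 768 values kept direction and size under the alternatives, 62 moved by at least 0.3 and 5 changed sign. The median of mitotic genes in members between the ages became -0.00058 without the cells rich in neutrophil or haemoglobin RNA and -0.29 with 0 or 1 Gpnmb UMIs. The 9-week median of osteoclast-type genes became -0.049 with 10 UMIs, -0.072 without those cells and -0.46 with Gpnmb-high members. Over 87 named ratios, 670 of 934 values stayed, 262 moved and 2 changed sign. These were Adpgk between the ages with 10 UMIs (-0.000397), and Mgl2 (0.29) with Gpnmb-high members. No paired analysis was possible because each age is 1 library, and for the same reason no replicate could be left out. With 94 and 98 members, a gene at 20 CPM rests on few UMIs, and its ratio is imprecise.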

Other observations

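Several genes with high pooled levels in members came from 1 cell. Retnla, a secreted product of alternatively activated macrophages, had 562 UMIs in 6-week members (525 CPM), 98.0% of them in 1 cell and 0 UMIs in 9-week members. In other macrophages it stood at 15.5 CPM at 9 weeks and 425 CPM at 6 weeks. Cxcl10 stood at 102 CPM at 9 weeks and 322 CPM at 6 weeks in members, with 70.1% and 53.6% of its UMIs in 1 cell. Fabp4 had 42.3% of the members' UMIs in 1 cell at 9 weeks and 34.7% at 6 weeks. Markers of fibroblasts summed to 43.9 CPM in 6-week members, with no UMI in 97 of 98 cells, against 1.62 CPM in other macrophages.

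Gdf15, a stress cytokine of the p53 list, was the gene of that list past 1.5-fold in members at both ages, with 58.7 CPM in members against 4.93 CPM in other macrophages at 9 weeks and 43.9 against 6.84 CPM at 6 weeks, and a single cell held 47.9% of the members' UMIs at 9 weeks. Il7r, an interleukin receptor subunit best known from lymphocytes, stood at 183 CPM in members with 2 or more Gpnmb UMIs and 30.0 CPM in members with 0 or 1 at 9 weeks, and at 142 and 13.1 CPM at 6 weeks, against 5.81 and 7.38 CPM in other macrophages. Il7r was chosen after its values were seen.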
